A study of Mus musculus with 6 samples.

Results

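The levels of 10 long noncoding RNAs were followed in primary brite adipocytes after *Ctcflos* knockdown (KD): *Malat1*, *Neat1*, the imprinted RNAs *H19* and *Meg3*, the snoRNA hosts *Gas5*, *Snhg1*, *Snhg3*, *Snhg8* and *Snhg12*, and the microRNA host *Mir22hg*. They are the rows of the expression table whose symbol is one of these 10 names, which gave 10 of 52089 symbols and 81 of 168021 transcript accessions. The cells were preadipocytes from the stromal-vascular fraction of 129SvEv inguinal white fat that were induced for 2 days and then differentiated for 1 day with rosiglitazone, a PPARγ agonist that makes such cells thermogenic. Both groups were reverse transfected with LNA Gapmer antisense oligonucleotides at 50 nM and harvested 24 h later. The *Ctcflos* KD group (n = 3) received the oligonucleotide ASO1, directed against transcript 1 of the long noncoding RNA *Ctcflos*, and the NC ctrl group (n = 3) received a nontargeting oligonucleotide. The KD thus rests on 1 oligonucleotide. The labels do not say whether the replicates came from separate mice or cultures, so that p-values measure only the spread between these libraries, which may be technical.

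Long noncoding RNAs act as RNA or serve to carry smaller RNAs. *Neat1* builds paraspeckles and *Malat1* accumulates in nuclear speckles, where splicing factors are stored. In snoRNA host genes the mature snoRNAs, which guide the chemical modification of ribosomal RNA, are cut out of introns, while the spliced host RNA is often degraded on ribosomes by nonsense-mediated decay. Many of these hosts start at a run of pyrimidines, as genes for ribosomal proteins do. *H19* and *Meg3* are transcribed from one parental chromosome and are most active in fetal tissue and precursor cells.

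The libraries held 60.8 to 79.2 mio mapped reads, as recovered from the step size of low values. No source states whether the 2 ends of a read pair were counted separately, so that a read here can be 1 end of a pair. On this scale 3 reads on a transcript of 1 kb would give 0.0379 to 0.0494 RPKM, a read density corrected for transcript length and library size. *Ctcflos* (*1300015D01Rik*) itself read 0.0969, 0.0705 and 0.210 RPKM in KD replicates 1 to 3 and 0.748, 0.751 and 0.840 RPKM in controls, or 16.1% of control (limma over all genes above 0 RPKM, adjusted p = 0.025). Adipocyte markers were abundant in both groups, with a summed level of 3889 to 5118 RPKM in KD and 5313 to 6032 RPKM in controls. Of these, 0 of 6 passed the test, but each had a negative log2 fold change, from -0.17 for *Cd36* to -0.55 for *Adipoq*. The 5 brite markers summed to 20.2 to 35.6 RPKM in KD and 38.1 to 88.0 RPKM in controls. Of them, *Ucp1* and *Ppargc1a* fell, close to the threshold (limma over genes with a mean of at least 1 RPKM, adjusted p = 0.0481 and 0.0489). *Cidea* and *Cox7a1* had log2 fold changes of -0.75 and -0.47 and did not pass (limma adjusted p = 0.053 and 0.236). *Prdm16* was below the minimum mean. Stromal markers summed to 184 to 403 RPKM against 282 to 460 RPKM, with *Pdgfra* lower. Most of this sum was *Ly6a*, at means of 281 RPKM in KD and 346 RPKM in controls, which did not pass the test. *Cd34* and *Col1a1* had log2 fold changes of 0.17 and 0.05 and did not pass either. The smooth muscle sum overlapped, with 51.0 to 114 RPKM in KD and 76.8 to 200.2 RPKM in controls, and its highest value was in control replicate 2, which also had the lowest brite sum among the controls. The macrophage sum of 3 markers was 3.26 to 5.43 RPKM in KD and 0.940 to 2.80 RPKM in controls, with *Cd68* higher, *Csf1r* at 1.10 to 1.48 RPKM in KD and 0.269 to 0.833 RPKM in controls (below the minimum mean) and *Ptprc*, the pan-leukocyte marker, at 0.0486 RPKM or less in every library. The endothelial sum stayed at 1.35 RPKM or less. The part of these shifts in the results for the long noncoding RNAs was not tested.

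After *Ctcflos* KD, 3 of the 5 snoRNA hosts rose (*Gas5*, *Snhg8* and *Snhg12*), *H19* fell, and *Neat1*, *Malat1*, *Snhg1*, *Snhg3* and *Mir22hg* did not pass the test. The test was limma on log2(RPKM + 1), with the gene value taken as the mean over its accessions, genes with a mean of at least 1 RPKM, and Benjamini-Hochberg adjustment over 11701 genes. All members but *Meg3*, which stayed below the minimum, entered it. Of these 9, 3 were called higher and 1 lower at an adjusted p below 0.05, while 11.5% of all genes tested were called higher, 12.4% lower and 24% in either direction. In 4 members every KD library was above every control and in 2 every KD library was below, where 22.9% and 21.9% of all genes tested showed this and 44.8% showed either. In the fit without a filter, 2 members were called, *H19* and *Snhg12*, and 4.71% of all genes. In bulk RNA, fewer cells of a type and less RNA per cell cannot be told apart.

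**Figure D1:**
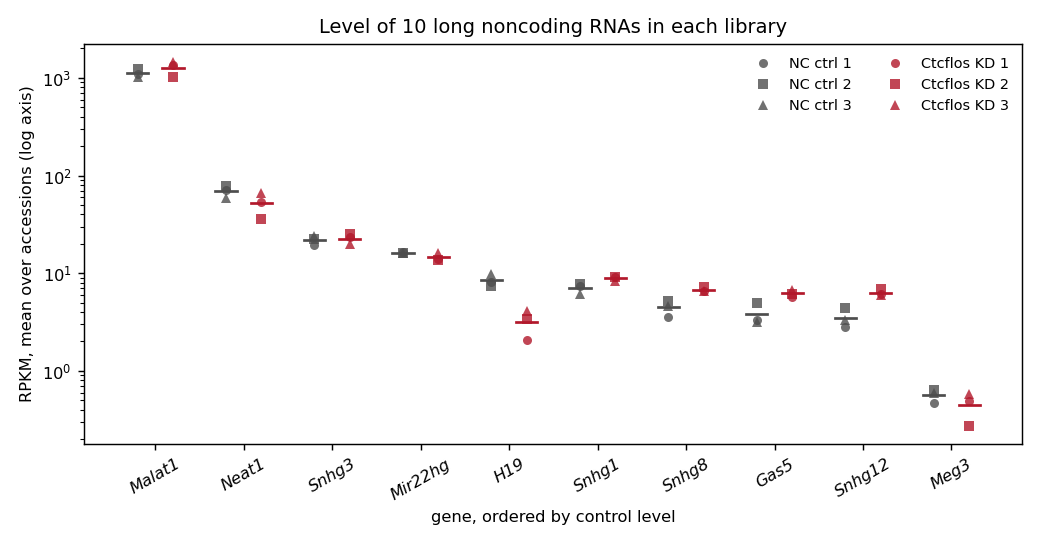
RPKM of each gene (mean over its accessions, log axis) in the 3 NC ctrl libraries (grey) and the 3 *Ctcflos* KD libraries (red), with marker shape for the replicate number and a bar for the group mean. *Malat1* lies at 1012 RPKM or above and *Meg3* below 1 RPKM in every library. The groups of *H19*, *Snhg1*, *Snhg8*, *Gas5*, *Snhg12* and *Mir22hg* do not overlap.

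The 10 RNAs spanned a wide range of levels, compared here per length as the mean RPKM over the accessions of each gene. *Malat1* stood first in both groups, at 1108 ± 105 RPKM in controls and 1272 ± 219 RPKM in KD (SD, n = 3), and ranked 21 among all genes of the table. *Neat1*, *Snhg3* and *Mir22hg* followed in this order in both groups, with ranges that did not overlap between neighbours. In controls the next was *H19* at 8.49 RPKM, overlapping *Snhg1* at 7.06 RPKM, and then *Snhg8*, *Gas5* and *Snhg12* at 4.48, 3.81 and 3.51 RPKM, whose ranges overlapped from one to the next. In KD *H19* came ninth, at 3.19 RPKM, below *Snhg1*, *Snhg8*, *Snhg12* and *Gas5*. *Meg3* was last in both groups at 0.570 and 0.450 RPKM, so that it cannot be called abundant in these cells. The order holds for these means only: *Snhg1* is lowered by 2 accessions at 0.0539 RPKM and its highest has a mean of 16.4 RPKM, while *Snhg3* without its highest accession had means of 3.32 RPKM in controls and 3.39 RPKM in KD.

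The annotated starts of the snoRNA hosts are shown because a pyrimidine run at the first base is known for many such genes. Each line gives 10 bases before and 20 bases from the start in the sense of the gene, from RefSeq on GRCm38.p6, with capitals for the uninterrupted run of C and T that begins at the start.
Gas5 upstream start, chr1:161034591-161034620, plus strand: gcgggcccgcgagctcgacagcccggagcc
Gas5 downstream start, chr1:161035156-161035185, plus strand: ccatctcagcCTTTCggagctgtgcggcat
Snhg1, chr19:8723477-8723506, plus strand: tcttgtcggcCTCatttttccttgttcggg
Snhg3, chr4:132353667-132353696, minus strand: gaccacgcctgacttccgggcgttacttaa
Snhg8, chr3:123508317-123508346, minus strand: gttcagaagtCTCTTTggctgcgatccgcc
Snhg12, chr4:132308668-132308697, plus strand: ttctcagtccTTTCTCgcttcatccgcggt

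A first base C followed by 4 bases that are each C or T was found, on the sense strand, at 2 of 10 starts of the 8 members with a RefSeq entry, namely the downstream start of *Gas5* and the start of *Snhg8*. The same pattern stood at 2.51% of 32851 annotated starts. *Snhg12* has a run of 6 pyrimidines that begins with T at the annotated start and is preceded by 2 C bases. The run of *Snhg1* is 3 bases long, and *Snhg3* and the upstream start of *Gas5* begin with G. A match in these letters describes only the annotated start, and the start in use was not measured here.

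*Gas5*, a host of C/D box snoRNAs that is named for its accumulation in growth-arrested cells, spans chr1:161034422-161038539 on the plus strand and contains 10 snoRNA annotations. It read 5.75, 6.12 and 6.78 RPKM in KD replicates 1 to 3 and 3.31, 5.003 and 3.13 RPKM in controls. Every KD library was above every control, and control replicate 2 lay closest to the KD libraries. *Gas5* rose to 6.22 ± 0.523 RPKM from 3.81 ± 1.04 RPKM (SD, n = 3), a log2 fold change of 0.60 (SE 0.153, 95% interval 0.25 to 0.96, limma adjusted p = 0.0274). The call was lost without KD replicate 1 or 2 or without control replicate 1 or 3, at adjusted p = 0.0578, 0.0759, 0.111 and 0.113, and also without the filter on low values, at 0.0731, while the log2 fold change stayed between 0.50 and 0.77 over all 13 alternative fits.

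*Gas5* has 26 accessions in the table, of which 19 reached a mean of 1 RPKM. The highest, ENSMUST00000160497 of 629 bp, read 16.2, 14.9 and 16.9 RPKM in KD and 9.89, 12.6 and 8.17 RPKM in controls, from 645 to 770 reads in KD and 323 to 629 reads in controls. It rose by the same test, with a log2 fold change of 0.62 (SE 0.153, limma adjusted p = 0.0214). In all, 13 *Gas5* accessions rose and none fell, with log2 fold changes of 0.51 to 0.80 over the 19 tested. The accessions overlap and share reads, and for comparison 11.3% of 67403 accessions in the whole table were called higher.

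Some *Gas5* transcripts keep a snoRNA inside an exon, so that reads of the snoRNA or of unspliced RNA could be counted with them. Among the Ensembl transcripts, 14 tested accessions with an exon over a snoRNA had log2 fold changes of 0.51 to 0.80, with a median of 0.63, and 11 were called. The 3 tested Ensembl accessions without such an exon hold the same reads and count as 1 measurement, with 347, 342 and 375 reads in KD and 194, 362 and 175 reads in controls. Control replicate 2 lay within the KD range there, and none of the 3 was called, at log2 fold changes of 0.56 to 0.59. The RefSeq accession NR_002840 and AK083453, whose exons were not placed here, hold identical values and rose (log2 fold change 0.65, limma adjusted p = 0.0151). *Gas5* also overlaps *Zbtb37* on the opposite strand, whose own level was 2.11 RPKM in KD and 1.83 RPKM in controls (limma adjusted p = 0.312), and no source states whether reads were counted by strand.

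*Snhg12* spans chr4:132308623-132311024 on the plus strand and carries *Snora16a*, *Snora44*, *Snora61* and *Snord99*. Its level was 6.15, 6.84 and 5.97 RPKM in KD replicates 1 to 3 and 2.80, 4.44 and 3.30 RPKM in controls. The groups did not overlap, and control replicate 2 was again the highest control. *Snhg12* rose to 179.8% of control, with a log2 fold change of 0.71 (SE 0.141, 95% interval 0.39 to 1.04, limma adjusted p = 0.0139), and both of its accessions rose, the more abundant being AK009175. The call was lost without KD replicate 2 or without control replicate 1 or 3 (adjusted p = 0.0517, 0.0614 and 0.0679).

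*Snhg8* is a short gene at chr3:123507552-123508404 on the minus strand with the H/ACA snoRNA *Snora24* inside. It read 6.56, 7.19 and 6.56 RPKM in KD and 3.60, 5.17 and 4.65 RPKM in controls. The KD libraries lay close together and above all controls. *Snhg8* rose to 151.2% of control, with a log2 fold change of 0.51 (SE 0.127, 95% interval 0.22 to 0.81, limma adjusted p = 0.0246). Its most abundant accession, NR_028574, rose, while AK008369, with a mean of 2.12 RPKM, had a log2 fold change of 0.46 (limma adjusted p = 0.104). The call was lost without KD replicate 1 or 2, without control replicate 1 or 3 or without the filter, at adjusted p = 0.0601, 0.0796, 0.0946, 0.0844 and 0.0628.

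Control replicate 2 was the highest control for 4 of the 5 hosts. Without it, *Gas5*, *Snhg8* and *Snhg12* stayed called, at log2 fold changes of 0.77, 0.61 and 0.85 (limma adjusted p = 0.0166, 0.0323 and 0.0147). Leaving out the highest control makes a rise larger by construction, so that this fit is no support for the rise. Without control replicate 1 or 3 all of these calls were lost.

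*Snhg1*, at chr19:8723475-8726443 on the plus strand, carries 8 snoRNA annotations, *Snord22* among them. It read 9.21, 9.07 and 8.29 RPKM in KD and 7.33, 7.74 and 6.10 RPKM in controls. Every KD library was above every control, but the difference did not pass the test, with a log2 fold change of 0.30 (SE 0.114, 95% interval 0.03 to 0.56, limma adjusted p = 0.0952). The smallest p that an exact two-sided permutation test of 3 libraries against 3 can give is 0.1, and *Snhg1* had this value. Its level rests on AK051045 and AK036616, at means of 16.4 and 15.4 RPKM, while the other 2 accessions, the RefSeq one among them, were at 0.0539 RPKM and were not tested.

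*Snhg3* spans chr4:132348014-132353686 on the minus strand, 36989 bp beyond *Snhg12*, and carries *Snora73a* and *Snora73b*, which guide early cleavage of the ribosomal RNA precursor. It read 23.2, 24.9 and 19.7 RPKM in KD and 19.5, 22.6 and 24.0 RPKM in controls. The lowest value came from control replicate 1 and the highest from KD replicate 2, so that the groups were mixed. It had a log2 fold change of 0.03 (SE 0.134, 95% interval -0.27 to 0.34, limma adjusted p = 0.869). The interval includes the log2 fold change of *Snhg1* but not those of *Gas5*, *Snhg8* and *Snhg12*, and the difference between the hosts was not tested.

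Most of the *Snhg3* value came from 1 accession, ENSMUST00000141090 of 581 bp, which held 85.0% to 90.1% of the summed RPKM of the 6 accessions. It read 122, 133 and 101 RPKM in KD and 106, 115 and 126 RPKM in controls, from 3573 to 5799 reads. Its exon at chr4:132352663-132352933 covers 159 of the 205 bp of *Snora73a*, so that its level cannot be separated from that of the snoRNA or its precursor. The other 5 accessions had a mean of 3.49, 3.30 and 3.38 RPKM in KD and 2.33, 4.06 and 3.56 RPKM in controls, with a log2 fold change of 0.05 (limma adjusted p = 0.842, chosen after seeing the data). The KD libraries were within a narrow range there and the controls spread around them. These 5 accessions did not move alike. In ENSMUST00000136127, the highest of them, every KD library was above every control (log2 fold change 0.28, limma adjusted p = 0.184). The other tested ones had log2 fold changes of -0.02 to -0.01. ENSMUST00000155816, below the minimum, had means of 0.697 RPKM in KD and 1.06 RPKM in controls. *Snhg3* also overlaps *Rcc1* on the same strand.

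**Figure D2:**
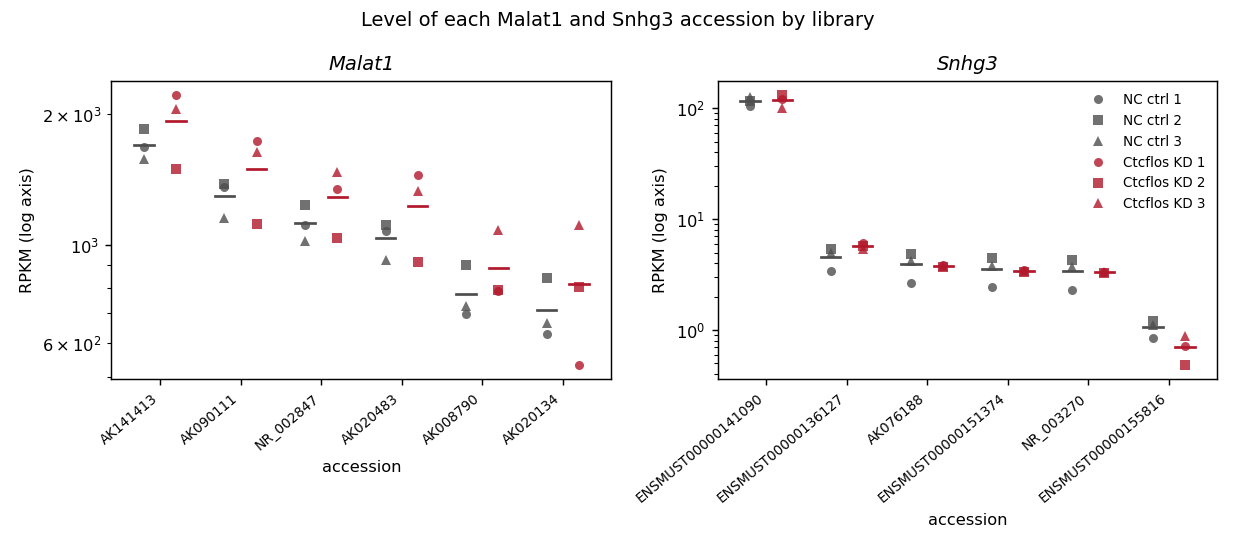
RPKM (log axes) of each *Malat1* and *Snhg3* accession in the 3 NC ctrl libraries (grey) and the 3 *Ctcflos* KD libraries (red), with marker shape for the replicate and a bar for the group mean. For *Snhg3* the accession over *Snora73a* lies above 100 RPKM and all others below 7 RPKM. For *Malat1* KD replicate 1 is the highest library for AK141413 and the lowest for AK020134.

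*H19* showed the largest difference of the 10. This imprinted RNA of growing embryonic tissue lies at chr7:142575529-142578143 on the minus strand and is the precursor of miR-675. It read 2.08, 3.39 and 4.09 RPKM in KD replicates 1 to 3 and 8.19, 7.38 and 9.90 RPKM in controls. All KD libraries were below all controls, with KD replicate 1 the lowest. *H19* fell to 37.6% of control, from 8.49 ± 1.28 to 3.19 ± 1.02 RPKM (SD, n = 3), a log2 fold change of -1.20 (SE 0.191, 95% interval -1.64 to -0.76, limma adjusted p = 0.00772). It kept this call in all 13 alternative fits, at adjusted p between 0.0013 and 0.047. All 4 accessions fell, with log2 fold changes of -1.30 to -1.16, where 14.7% of all accessions tested were called lower, and the most abundant was AK003142.

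The products of *Mir675*, inside *H19* at chr7:142577064-142577147, are given with the seed (bases 2 to 8) in capitals, since that stretch decides which messages a microRNA binds. The mature microRNAs were not measured in these libraries, and only their host was.
mmu-miR-675-5p: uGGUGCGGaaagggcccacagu
mmu-miR-675-3p: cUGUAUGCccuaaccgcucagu
The sequences are from RefSeq, and their seeds differ.

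The imprinted partner of *H19*, *Igf2*, encodes a growth factor and was at 0.0488 to 0.154 RPKM in all libraries, with overlapping groups. It was below the minimum and was named after its values were seen. The nearest tested genes were *Mrpl23*, 34782 bp away, and *Cd81*, on the other side. *Mrpl23* had a log2 fold change of 0.11 (limma adjusted p = 0.515) and *Cd81* one of -0.01 (limma adjusted p = 0.983).

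*Meg3*, the maternally expressed RNA of the *Dlk1* region, lies at chr12:109541001-109571726 on the plus strand. It read 0.495, 0.275 and 0.581 RPKM in KD and 0.469, 0.641 and 0.600 RPKM in controls. The groups overlapped and KD replicate 2 was the lowest library. In a fit without a filter the log2 fold change was -0.12 (SE 0.111, 95% interval -0.38 to 0.14, limma adjusted p = 0.571). These means correspond to 21 to 51 reads per kilobase of transcript. Only 4 of 21 *Meg3* accessions reached a mean of 1 RPKM, AK140201 being the highest at 2.41 RPKM, and none passed the test. *Rian*, the next RNA of the same imprinted cluster, had a log2 fold change of -0.01 (limma adjusted p = 0.978).

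*Neat1* lies at chr19:5824708-5845478 on the minus strand and makes a short and a long form from one start, of which the long one is needed for paraspeckles. It read 53.7, 36.0 and 65.6 RPKM in KD replicates 1 to 3 and 71.0, 78.5 and 59.1 RPKM in controls. KD replicate 3 lay above control replicate 3, so that the groups overlapped, and KD replicate 2 was the lowest library. The log2 fold change was -0.45 (SE 0.222, 95% interval -0.96 to 0.06), which did not pass the test (limma adjusted p = 0.169). Without KD replicate 3 it was -0.64 and passed (adjusted p = 0.0384), and without KD replicate 2 it was -0.22 (adjusted p = 0.41), so that its size depends on single libraries.

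All 7 *Neat1* accessions moved nearly in parallel, with log2 fold changes of -0.46 to -0.44 and means of 54.5 to 62.9 RPKM, AK018202 being the highest. Some hold identical values. None of the 7 had a transcript length in the annotation used, and the ratio of the long to the short form was therefore not made.

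*Malat1*, 22036 bp from *Neat1* at chr19:5795690-5802672 on the same strand, read 1343, 1027 and 1448 RPKM in KD replicates 1 to 3 and 1092, 1220 and 1012 RPKM in controls. KD replicates 1 and 3 were above all controls and KD replicate 2 was the second lowest of the 6 libraries. The log2 fold change was 0.19 (SE 0.168, 95% interval -0.20 to 0.57, limma adjusted p = 0.432). The 6 accessions had log2 fold changes of 0.15 to 0.22, but the order of the libraries differed between them. Where these accessions lie on the RNA was not determined here. The most abundant, AK141413, had 2209, 1493 and 2051 RPKM in KD, and AK020134 had 532, 804 and 1113 RPKM. The level of AK020134 was thus 24.1% of that of AK141413 in KD replicate 1, against 53.8% and 54.3% in the other KD libraries and 37.5%, 45.9% and 42.1% in controls.

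*Mir22hg*, at chr11:75461539-75466676 on the plus strand, is the primary transcript of miR-22, a microRNA of muscle and fat metabolism whose hairpin lies in an exon of both annotated transcripts. It read 14.0, 13.8 and 16.0 RPKM in KD and 16.4, 16.2 and 16.2 RPKM in controls. All KD libraries were below the controls, but KD replicate 3 by only a little. The log2 fold change was -0.15 (SE 0.107, 95% interval -0.40 to 0.10, limma adjusted p = 0.328). Its 3 accessions, AK008813 being the highest, had log2 fold changes of -0.16 to -0.13. In each of the 3 the groups overlapped, so that the separation holds for their mean only. *Mir22hg* overlaps *Tlcd2* on the same strand, which had a mean of 45.8 RPKM in KD and 60.5 RPKM in controls (log2 fold change -0.38, limma adjusted p = 0.139), and reads of the overlap could count for both.
mmu-miR-22-5p: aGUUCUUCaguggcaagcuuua
mmu-miR-22-3p: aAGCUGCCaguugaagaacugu
These are the mature products at chr11:75463734-75463755 and chr11:75463772-75463793 (RefSeq, GRCm38.p6), with the seed in capitals, and the 2 seeds differ from each other and from those of miR-675. As with *H19*, the host RNA alone was measured.

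**Figure D3:**
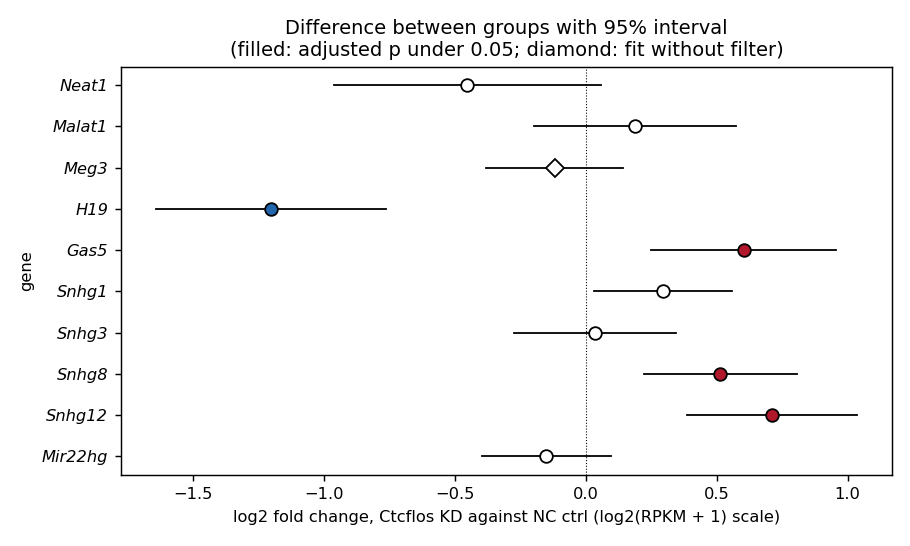
Log2 fold change of each gene between *Ctcflos* KD and NC ctrl on the log2(RPKM + 1) scale (points) with the 95% interval of the limma fit (lines). Filled points passed the test: *H19* at -1.20, *Gas5* at 0.60, *Snhg8* at 0.51 and *Snhg12* at 0.71. The diamond for *Meg3* comes from the fit without a filter.

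By accession, 20 of the 54 tested accessions of the 10 genes were called: 13 of *Gas5*, 1 of *Snhg8* and 2 of *Snhg12* higher, and 4 of *H19* lower, where 26% of all accessions tested were called. In 21 of the tested accessions every KD library was above every control and in 4 every one was below, against 21.6% and 23.6% of all accessions tested. The relative use of accessions within a gene was tested with limma diffSplice (Simes p per gene). It called 0 of the 10 members, of which 0 had an unadjusted p below 0.05 and the lowest p was 0.644 for *Snhg3*, and 0.658% of 10027 genes. Overlapping accessions share reads and some hold identical values, which limits what this test can show. The count of called accessions was 7 without KD replicate 2, 5 without control replicate 1 and 4 without control replicate 3.

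**Figure D4:**
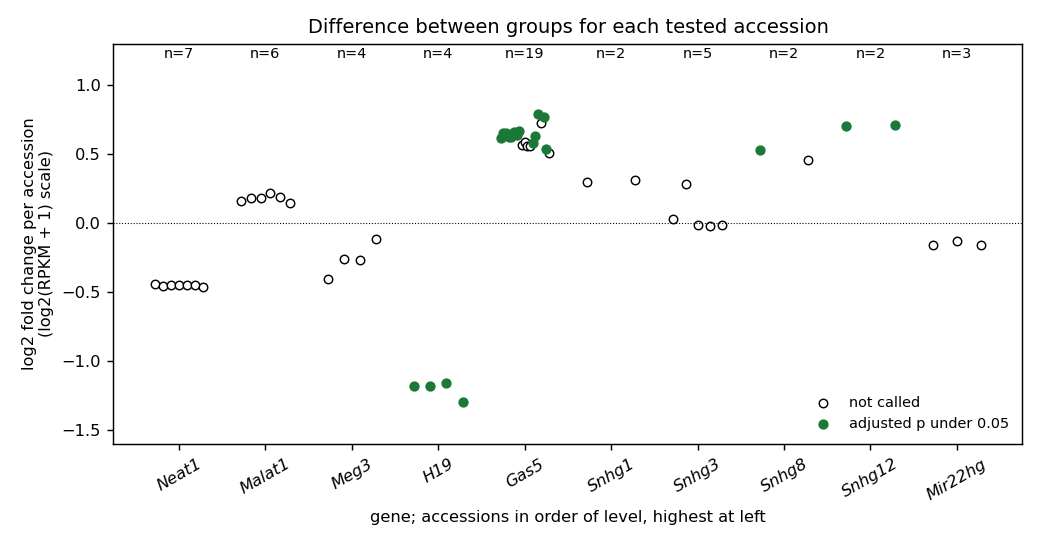
Log2 fold change (log2(RPKM + 1) scale) of each of the 54 tested accessions, by gene and in order of level, with filled points for an adjusted p below 0.05 and n for the number of accessions tested. The accessions of a gene lie close together, and the called ones belong to *H19*, *Gas5*, *Snhg8* and *Snhg12*.

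Genes with related roles were read from the same fit. Of the other long noncoding snoRNA hosts, 4 were tested, and *Snhg5* and *Dancr* rose while none fell, where 11.5% of all genes tested were called higher and 12.4% lower. The median log2 fold change was 0.29 against 0.03 over all genes tested. *Snhg5* read 6.43, 8.14 and 8.49 RPKM in KD and 4.10, 6.08 and 5.39 RPKM in controls (log2 fold change 0.49, limma adjusted p = 0.0489). *Dancr* had a log2 fold change of 0.42 (limma adjusted p = 0.0359). Both missed the threshold under scaling by the median of ratios (adjusted p = 0.0683 and 0.0542). The most abundant, *Snhg4*, had one of 0.16 (limma adjusted p = 0.359). *Snhg7*, also tested, had one of -0.05 (limma adjusted p = 0.881). *Snhg6*, *Snhg9*, *Snhg10* and *Snhg11* were below the minimum. In the fit without a filter they had log2 fold changes of -0.07, -0.02, -0.08 and -0.23, and none was called. For *Snhg11* every KD library was below every control.

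Protein-coding hosts carry snoRNAs in the introns of genes for ribosome and translation factors. Of 14 tested, 4 rose and none fell, against 11.5% and 12.4% of all genes tested (median log2 fold change 0.36). These were *Nop56* (1.15, limma adjusted p = 0.00805), *Ncl* (0.74, 0.00838), *Taf1d* (0.41, 0.0353) and *Wdr43* (0.35, 0.0428). *Eef2*, the most abundant of the list and the elongation factor that moves the ribosome along, had a log2 fold change of 0.39 (limma adjusted p = 0.144).

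The proteins that assemble with snoRNAs into particles showed 4 of 11 tested genes higher and none lower, against the same shares of 11.5% and 12.4% (median log2 fold change 0.42). *Nop56* and *Nop58* are core proteins of the C/D box particles, and *Nop58* rose with a log2 fold change of 0.73 (limma adjusted p = 0.0115). The assembly factor *Nufip1* rose by 0.82 and the chaperone *Nolc1* by 0.42 (limma adjusted p = 0.0303 and 0.0381). *Nop10*, of the H/ACA particles, was the most abundant and had a log2 fold change of 0.36 (limma adjusted p = 0.0848). *Nop56* and *Dkc1* stand in both of these lists. *Shq1*, a gene of the particle list below the minimum, went the other way. It read 0.398, 0.348 and 0.442 RPKM in KD and 0.943, 0.794 and 0.742 RPKM in controls. In the fit without a filter its log2 fold change was -0.39 (limma adjusted p = 0.0579). *Fbl* and *Naf1*, also below the minimum, had 0.04 and 0.20 in that fit.

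Nonsense-mediated decay degrades many spliced snoRNA host RNAs. Of 14 tested factors 4 rose, with *Casc3*, *Smg8*, *Magoh* and *Rnps1* at log2 fold changes of 0.44, 0.51, 0.48 and 0.35 (limma adjusted p = 0.0267, 0.029, 0.0358 and 0.0412). *Nbas* fell, with a log2 fold change of -0.79 (limma adjusted p = 0.00266). In all 5 of 14 were called, against 24% of all genes tested. *Nbas* also serves transport between endoplasmic reticulum and Golgi. *Magoh*, a subunit of the exon junction complex, was the most abundant of the list.

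Proteins of paraspeckles and nuclear speckles, the bodies of *Neat1* and *Malat1*, had 3 genes higher and 1 lower of 15 tested (median log2 fold change 0.20), a share of calls near the 24% over all genes tested. *Pspc1*, a paraspeckle core protein, fell, with 1.00, 0.807 and 1.59 RPKM in KD against 2.33, 2.99 and 2.35 RPKM in controls (log2 fold change -0.75, limma adjusted p = 0.0134). *Tardbp*, *Matr3* and the splicing factor *Srsf2* rose by 0.45, 0.46 and 0.40 on the log2 scale (limma adjusted p = 0.0289, 0.0308 and 0.0476). *Hnrnpk*, the most abundant, had a log2 fold change of 0.11 (limma adjusted p = 0.501).

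Of 12 tested imprinted genes, none rose and *Grb10*, an inhibitor of insulin signalling, and *Sgce* fell (log2 fold change -0.68 and -0.41, limma adjusted p = 0.023 and 0.0194). These 2 of 12 stand against 12.4% of all genes tested that were called lower. Their list had a median of -0.09, and *Dcn*, the most abundant, had a log2 fold change of -0.15 (limma adjusted p = 0.562). Among 7 other long noncoding RNAs and microRNA hosts 3 were called, against 24% of all genes tested. *Mir17hg*, host of an oncogenic microRNA cluster, rose by 0.93 and *Tug1*, the most abundant of the list, rose by 0.88 (limma adjusted p = 0.00528 and 0.0134). *Mir143hg*, a host in smooth muscle, fell, with a log2 fold change of -0.56 (limma adjusted p = 0.0148). The lists together held 23 calls, a count of 3 to 40 when single libraries were left out.

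**Figure D5:**
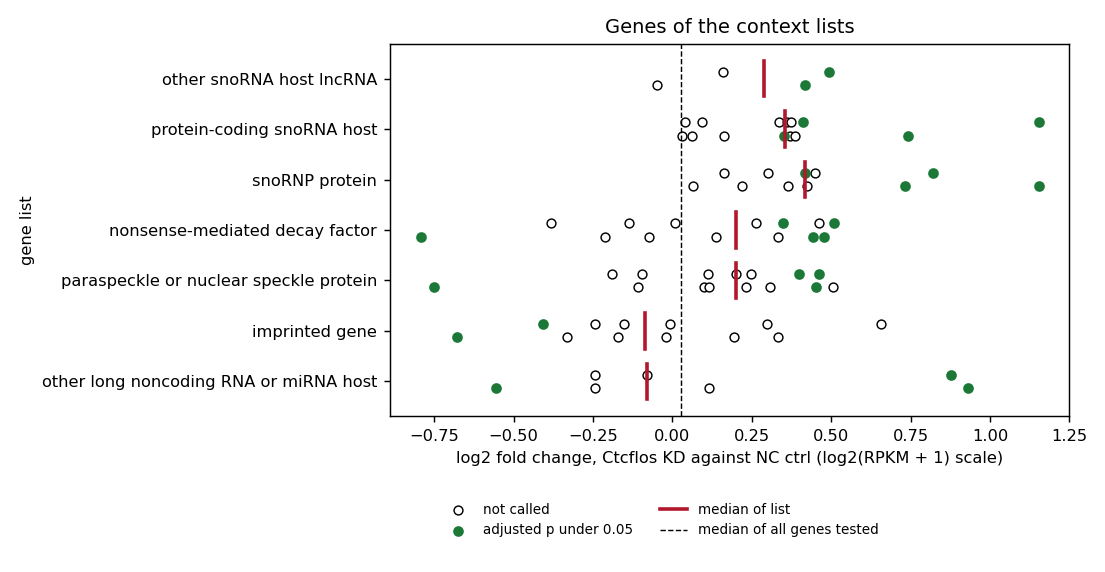
Log2 fold change (log2(RPKM + 1) scale) of each tested gene in 7 lists of related genes, with filled points for an adjusted p below 0.05, a red bar for the median of the list and a dashed line for the median of all genes tested (0.03). All tested protein-coding snoRNA hosts and snoRNP proteins lie above 0, as do 6220 of all 11701 genes tested. Of these hosts 4 passed the test, as did 4 of the snoRNP proteins. Genes below the minimum mean are not shown. When single libraries were left out, 1 to 9 of these hosts and 1 to 8 snoRNP proteins passed.

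Neighbouring genes were compared because they can share reads or a promoter region with a member. Of the 20 nearest tested genes on either side, 2 were called, both beside *Snhg1*, which is not more than the 24% of all genes tested. *Slc3a2*, the heavy chain of amino acid transporters, starts 106 bp from *Snhg1* on the opposite strand and read 22.6, 23.7 and 14.5 RPKM in KD and 10.2, 12.2 and 11.6 RPKM in controls, a rise of 0.76 on the log2 scale (SE 0.186, limma adjusted p = 0.0243). *Wdr74*, 9384 bp away on the other side, rose by 0.42 (limma adjusted p = 0.0235). Both calls were lost without KD replicate 1 or 2, without control replicate 1 or 3 and without the filter, and *Slc3a2* lost its call without control replicate 2.

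The other neighbours did not pass the test. Near *Snhg12*, *Taf12* and *Trnau1ap* had log2 fold changes of 0.19 and 0.27 (limma adjusted p = 0.152 and 0.0929). Beside *Snhg3*, *Rcc1* and *Med18* had log2 fold changes of 0.22 and 0.09 (limma adjusted p = 0.151 and 0.445), and beside *Snhg8*, *Mettl14* and *Arsj* had -0.12 and -0.08 (0.335 and 0.574). *Frmd8* next to *Neat1* had 0.28 (limma adjusted p = 0.116), *Wars* next to *Meg3* 0.11 (0.627) and *Wdr81* next to *Mir22hg* 0.30 (0.308).

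The genes with the most similar profile were found by the Euclidean distance between log2(RPKM + 1) values centred over the 6 libraries. For *Gas5* these were *Fst*, *Dpysl3* and *Fabp7*, at distances of 0.144, 0.149 and 0.194. For *Neat1* they were *9630023C09Rik*, *AK171016* and *AK081424*, at 0.149, 0.193 and 0.215. For *Malat1* they were *Usp10*, *Olr1* and *AK089720*, at 0.0738, 0.113 and 0.122. For *Meg3* they were *Galt*, *Rad50* and *Abcc5*, at 0.0298, 0.0883 and 0.0932. The 6 libraries share depth and scaling, and the distances are a description.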

How the data were processed

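Total RNA of 6 libraries was made into stranded libraries, per the labels. The authors deposited RPKM values, a unit read from the values and from the study's methods for a companion data set, per RefSeq, Ensembl and GenBank accession. How it was made is not given in the sources used here, and replicates were not pooled. The table has 168326 lines, of which 305 exact repeats were removed. Depth was recovered where at least 95.2% of low values of Ensembl transcripts were whole reads within 0.05, and it limits counting error only.

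Genes (mean over accessions) and accessions with a mean RPKM of at least 1 were fitted with limma 3.58.1 (R 4.3.3, data.table version 1.17.8, trend, pseudocount 1) on log2 values. Fold changes on this scale understate those of low genes. Usage was tested with diffSplice. P-values were adjusted over all features tested. The fits were tested on simulated data. Coordinates are GRCm38 (Gencode vM21), and RefSeq starts are GRCm38.p6. Python 3.11.15, pandas 2.3.3, numpy 2.4.6 and matplotlib 3.10.9 were used. The members and lists were chosen with earlier results of these data known. The text names all members with their most abundant accession, called genes of each list (at most 4, by p) with its most abundant gene, the nearest tested neighbours (2 are not reported here) and the 3 nearest profiles. Alternatives were a pseudocount of 0.1, no filter, a block for the replicate number, scaling by the median of ratios, summed, RefSeq or highest accessions, and leaving out each library.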

Additional observations from a re-analysis of the deposited data

How the results depend on the processing

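Under a pseudocount of 0.1, scaling by the median of ratios (which moved the median log2 fold change of all genes by -0.0234) and summed, RefSeq or highest accessions, the same number of 4 members was called. Without the filter on low values, 1807 genes, 9 genes of the lists, 0 neighbours, 2 members and 13 member accessions were called. With values from the highest accession, 4 neighbours were called. Leaving out 1 library in turn gave 423 to 4784 genes, 3 to 40 genes of the lists, 0 to 5 neighbours, 1 to 5 members and 4 to 27 member accessions, with the highest counts without KD replicate 3 and the lowest number of genes without control replicate 3. *H19* alone stayed called in every fit, and the member called in addition without KD replicate 3 was *Neat1*. *Snhg3* turned sign with RefSeq accessions (-0.0116), and without KD replicate 2 (-0.0358) or control replicate 1 (-0.0457), with 0.127 as its highest value, without KD replicate 3. The cause was not tested.

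The replicate numbers were shared by both groups. Deviations of libraries with the same number correlated at 0.287, -0.288 and -0.418 over 11701 genes. These mixed signs cannot decide whether the numbers pair the libraries. Replicate 3 had the lowest depth in each group, at 60.8 mio mapped reads in KD and 62.9 mio in controls. A block for the replicate number left 1671 genes called, 1647 of them also without it, and 11 genes of the lists, 1 neighbour and 3 members, *Gas5* being lost at adjusted p = 0.0501. The ratio of long to short *Neat1* was not run. Leaving a library out leaves 2 in its group.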
